A study of Mus musculus with 6 samples.

Results

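The unfolded protein response is the set of signals by which a cell adjusts the folding capacity of the endoplasmic reticulum (ER) to its load of new proteins. The 10 genes described here belong to that response: the 3 sensors Atf6, Ern1 and Eif2ak3, the transcription factor Xbp1, the luminal cofactors Creld2, Manf, Sdf2l1 and Hyou1, and the lectin chaperones Calr and Canx. They were taken by gene symbol, older symbols included, from a list drawn up with earlier results of these data known. All 10 were found, with 27 probe sets, among 18193 genes of the array. No probe set that names several genes named one of them.

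RNA came from CT26, an established colon carcinoma line of BALB/c mice, on Affymetrix Mouse430_2 arrays. The control group, 3 arrays, was transfected with the plasmid pU6-m3 with no insert, and the shSep15 group, 3 arrays, with pU6-m3 carrying 1 short hairpin RNA against Sep15, a selenoprotein of the ER now named Selenof. The arrays of a group came from different mRNA samples, but no label says whether these were separate transfections, or whether the cells were a clone or a pool. The p-values thus reflect only the spread among these arrays, which may be technical, and 1 hairpin does not cover other hairpins. Values are RMA (robust multi-array average) signals on the log2 scale, 1 per probe set and array, and differences are shSep15 minus control. A call means a limma p adjusted by the Benjamini-Hochberg method under 0.05. The value of a gene is that of its brightest probe set. Signals under log2 6.02, set from odorant and pheromone receptor probe sets, count as background.

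The targeted gene separated the groups. Selenof (1448903_at) read 12.41, 12.44 and 12.35 on the control arrays and 9.34, 9.59 and 9.50 on the shSep15 arrays, which left 13.2% of the control signal (limma adjusted p = 2.43e-07). Its other probe set, 1454525_at, was under background, at 4.71 in control and 4.70 in shSep15 cells, and the average of both differed by −1.47. Array medians lay between 5.83 and 5.87. Control 3 stood apart on the 3′ control for small-subunit ribosomal RNA, at 8.31 against 6.01 to 6.53 on the other arrays. It also had the lowest array weight that limma estimated, 0.515 against 0.808 to 1.63. The 3′ minus 5′ difference of the Actb control probe sets was 0.25 to 0.31 on control and 0.20 to 0.31 on shSep15 arrays. Of 8 colon epithelial markers 4 were above background in at least 1 group. Krt18 (−2.16, to 4.48, under background) and Krt20 (−2.13, to 6.15) were called lower, and Krt8 and Epcam were not called. Krt19, Cdh1, Vil1 and Cdx2 were under background in both groups. The mean log2 signal of that list was 5.99 to 6.14 on control and 5.40 to 5.63 on shSep15 arrays. All 4 mesenchymal markers were above background. Vim (0.23) and Col1a1 (1.32) were higher, and Col3a1 (−2.27) and Pdgfrb (−3.36, to 5.69, under background) lower. The list means were 10.53 to 10.77 on control and 9.30 to 9.97 on shSep15 arrays. Of 5 leukocyte markers 3 were above background: Lyz2 and Cd68, called lower, and Cd3e, not called. Itgam, under background, was called lower too, and Ptprc, which marks all leukocytes, was under background. The list means were 5.87 to 6.08 on control and 5.54 to 5.59 on shSep15 arrays. Of 4 endothelial markers 1 was above background and 0 were called by limma. The part of these marker differences in the results on the 10 genes was not tested.

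In a resting cell the chaperone Hspa5 (BiP) is bound to the luminal parts of the sensors, and unfolded proteins draw it away. Atf6 then moves to the Golgi and is cut there into a transcription factor. Ern1 (IRE1α) is a kinase and ribonuclease that splices Xbp1 mRNA so that it encodes an active factor. Eif2ak3 (PERK) phosphorylates the initiation factor eIF2α, which slows translation and favours that of Atf4. The factors made from Atf6 and Xbp1 raise chaperones, their cofactors and components of ER-associated degradation. Many of those genes carry the ER stress element, a CCAAT box and a CCACG box at a fixed spacing, which NF-Y and Atf6 bind together.

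The element was looked for in the promoters of the members because the cofactors are known targets of this response. RefSeq (build GRCm38.p6) gave a window from 250 bases before to 50 bases after the start for 7 of the 10 genes, all but Atf6, Manf and Hyou1. The search took CCAAT, any 9 bases and CCACG, on both strands. It was found once each in Calr, Canx and Creld2, and in 0.119% of all 32851 promoter windows (39 of them). The 3 elements are given in the direction of the motif, with its fixed letters in capitals.
Calr, chr8:84847075-84847093, plus strand: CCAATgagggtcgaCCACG
Canx, chr11:50325800-50325818, minus strand: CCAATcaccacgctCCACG
Creld2, chr15:88819520-88819538, minus strand: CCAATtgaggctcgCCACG

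Each spacer of 9 bases held 6 G or C. Read along the gene, the elements began 162, 145 and 126 bases before the start of Calr, Canx and Creld2. The motif ran along the gene in Canx and against it in Calr and Creld2. Their surroundings, 100 bases read along the gene, show how the boxes sit in each promoter, with the same letters in capitals.
Calr, chr8:84847035-84847134, minus strand: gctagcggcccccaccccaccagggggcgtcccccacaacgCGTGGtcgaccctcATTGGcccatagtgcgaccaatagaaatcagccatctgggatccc
Canx, chr11:50325760-50325859, minus strand: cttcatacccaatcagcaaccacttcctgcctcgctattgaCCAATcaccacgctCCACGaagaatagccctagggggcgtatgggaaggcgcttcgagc
Creld2, chr15:88819479-88819578, plus strand: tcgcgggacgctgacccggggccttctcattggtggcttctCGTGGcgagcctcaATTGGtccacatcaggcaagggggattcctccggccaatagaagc

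Neither the second form of the element, ATTGG, any 1 base and CCACG (0.0365% of windows), nor the unfolded protein response element TGACGTGG (0.676%) was in any of the 7 member windows, on either strand. The core ACGTGG of the latter, in 8.31% of windows, was in none of them either. CCAAT, present in 37.4% of windows, was in those of Eif2ak3, Calr, Canx, Creld2 and Sdf2l1. CCACG, present in 32.8%, was in those of Calr, Canx, Ern1, Creld2 and Sdf2l1. These counts of single boxes include the boxes inside the ER stress elements.

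Among the 10 genes the sensors Atf6 and Ern1 fell in shSep15 cells, to 38.7% and 33.1% of the control signal, while the cofactors Sdf2l1 and Creld2 and the chaperone Calr rose, by 2.10-fold, 1.66-fold and 1.30-fold. Eif2ak3, Xbp1, Manf, Hyou1 and Canx did not pass the test. These are bulk RNA samples, so a change in the share of cells of a kind and a change in RNA per cell cannot be told apart. By count, 3 of 10 genes were higher and 2 lower, against 25.0% of all genes called in either direction (12.2% higher and 12.8% lower). All 10 were above background, and of the 11131 genes above background 39.2% were called. The share called here, 5 of 10, is near that of genes with signal and is no result about them as a list. The median difference of the 10 was 0.09, beside 0.01 over the genes above background. Of the 27 probe sets 5 were higher and 6 lower, against 19.4% called over the array (9.71% higher and 9.66% lower). That share takes in dim probe sets, whereas 23 of the 27 were above background, beside 47.5% over the array. The 6 lower ones were all of Atf6 and Ern1, and 3 of the 5 higher ones were of Calr. These probe set counts are thus no result about the list either.

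**Figure D1:**
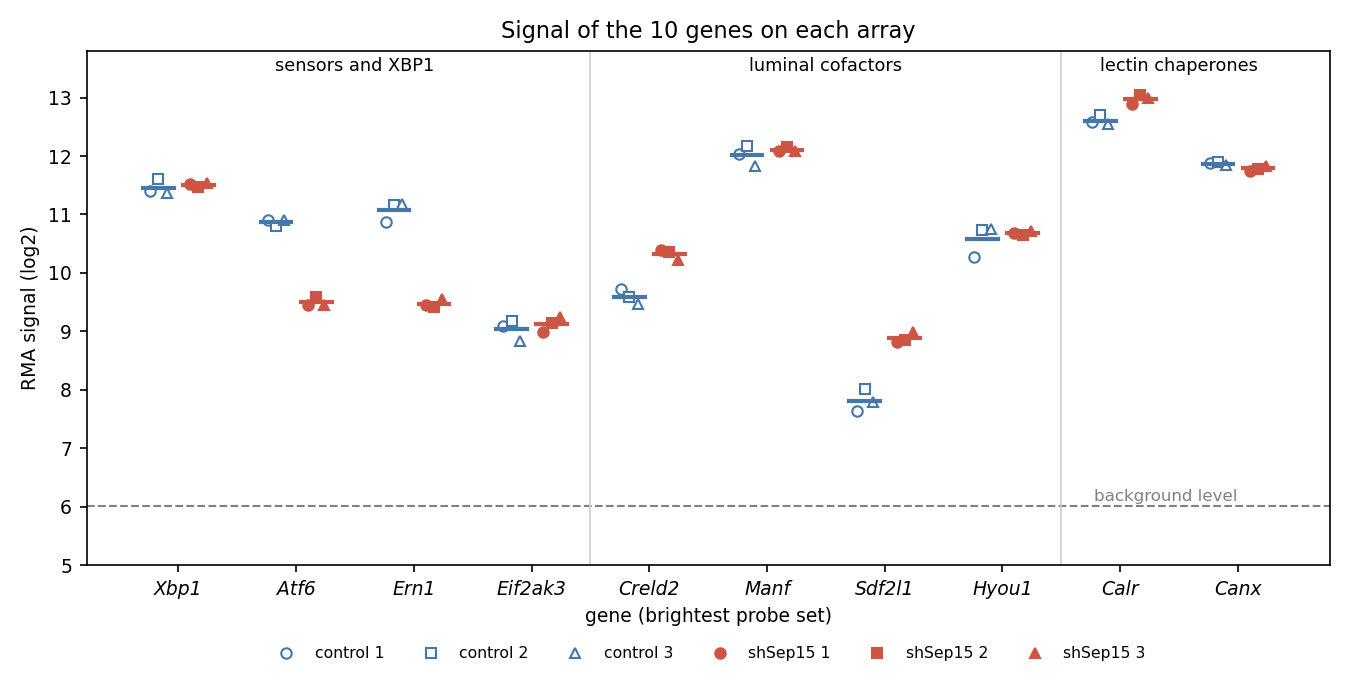
RMA signal (log2, vertical axis) of the brightest probe set of each of the 10 genes (horizontal axis) on the 3 control arrays (open symbols) and the 3 shSep15 arrays (filled symbols). Short bars are group means and the dashed line is the background level of 6.02. Atf6 and Ern1 lie lower, and Sdf2l1, Creld2 and Calr higher, on every shSep15 array than on every control array.

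Atf6, the sensor that becomes a transcription factor, was lower on all 3 of its probe sets. The brightest, 1435444_at, read 10.90, 10.81 and 10.90 on the control arrays and 9.46, 9.58 and 9.46 on the shSep15 arrays. The groups were far apart and each was tight: 10.87 ± 0.05 in control and 9.50 ± 0.07 in shSep15 cells (SD, n = 3 each). The difference was −1.37 (SE 0.08, limma adjusted p = 9.35e-06). Probe set 1456021_at read 10.96, 10.82 and 10.71 in control and 9.07, 9.02 and 9.10 in shSep15 cells, a difference of −1.77 (SE 0.09, limma adjusted p = 4.81e-06). On 1453288_at the readings were 10.04, 9.83 and 9.80 against 8.25, 8.16 and 8.10, a difference of −1.72 (SE 0.11, limma adjusted p = 1.11e-05). No shSep15 array reached the lowest control array on any of these probe sets. Among genes above background, 3.90% had a larger absolute difference than the brightest Atf6 probe set.

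Ern1, the kinase and ribonuclease of the response, fell on its 2 brighter probe sets by like amounts. On 1437119_at the control arrays read 10.87, 11.16 and 11.18 and the shSep15 arrays 9.45, 9.41 and 9.56. The means were 11.07 ± 0.18 and 9.47 ± 0.08 (SD, n = 3 each), a difference of −1.60 (SE 0.10, limma adjusted p = 1.33e-05). On 1421240_at the values were 8.45, 8.70 and 8.61 against 7.14, 6.72 and 7.27, a difference of −1.55 (SE 0.16, limma adjusted p = 0.000166).

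The 3 dimmer probe sets of Ern1 had smaller differences. Probe set 1438583_at, close to background, read 6.96, 6.75 and 6.13 in control and 6.07, 6.10 and 6.12 in shSep15 cells and was not called (−0.52, limma adjusted p = 0.105). Control 3 was the low one there, at the level of the shSep15 arrays. Without control 3 the difference was −0.76 and was called (limma adjusted p = 0.00388). The other 2 were under background in both groups: 1450176_at was not called (−0.43, limma adjusted p = 0.0663) and 1431886_at was (−0.48, limma adjusted p = 0.0128). Leaving out control 1 brought the former under the threshold (−0.58, limma adjusted p = 0.0156). The call of the latter ended without shSep15 1 (limma adjusted p = 0.0504) or shSep15 2 (0.0575). On all 5 probe sets every shSep15 array read lower than every control array. Averaging all 5 gave −0.92 (limma adjusted p = 0.000104), since the dim sets take part with equal weight.

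Eif2ak3, the kinase of eIF2α, did not pass the test on any probe set. Its only probe set above background, 1449278_at, read 9.09, 9.18 and 8.84 in control and 8.99, 9.14 and 9.25 in shSep15 cells. The ranges overlap, and the difference of 0.09 (limma adjusted p = 0.718) had a 95% interval of −0.19 to 0.36, unadjusted as are all intervals here. A fall of the size seen in Atf6 or Ern1 lies outside that interval. The 2 probe sets under background differed by 0.00 and −0.13.

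Xbp1, the mRNA that Ern1 splices, did not pass the test on any of 4 probe sets, all above background. The brightest, 1437223_s_at, read 11.40, 11.60 and 11.37 in control and 11.52, 11.46 and 11.55 in shSep15 cells. The groups overlap, with a difference of 0.05 (limma adjusted p = 0.718) and a 95% interval of −0.12 to 0.22. On 1420886_a_at the values were 11.04, 11.29 and 11.00 against 11.27, 11.35 and 11.22, a difference of 0.17 (limma adjusted p = 0.269). The other 2 differed by 0.10 and −0.17. These values do not separate the spliced from the unspliced form of Xbp1.

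**Figure D2:**
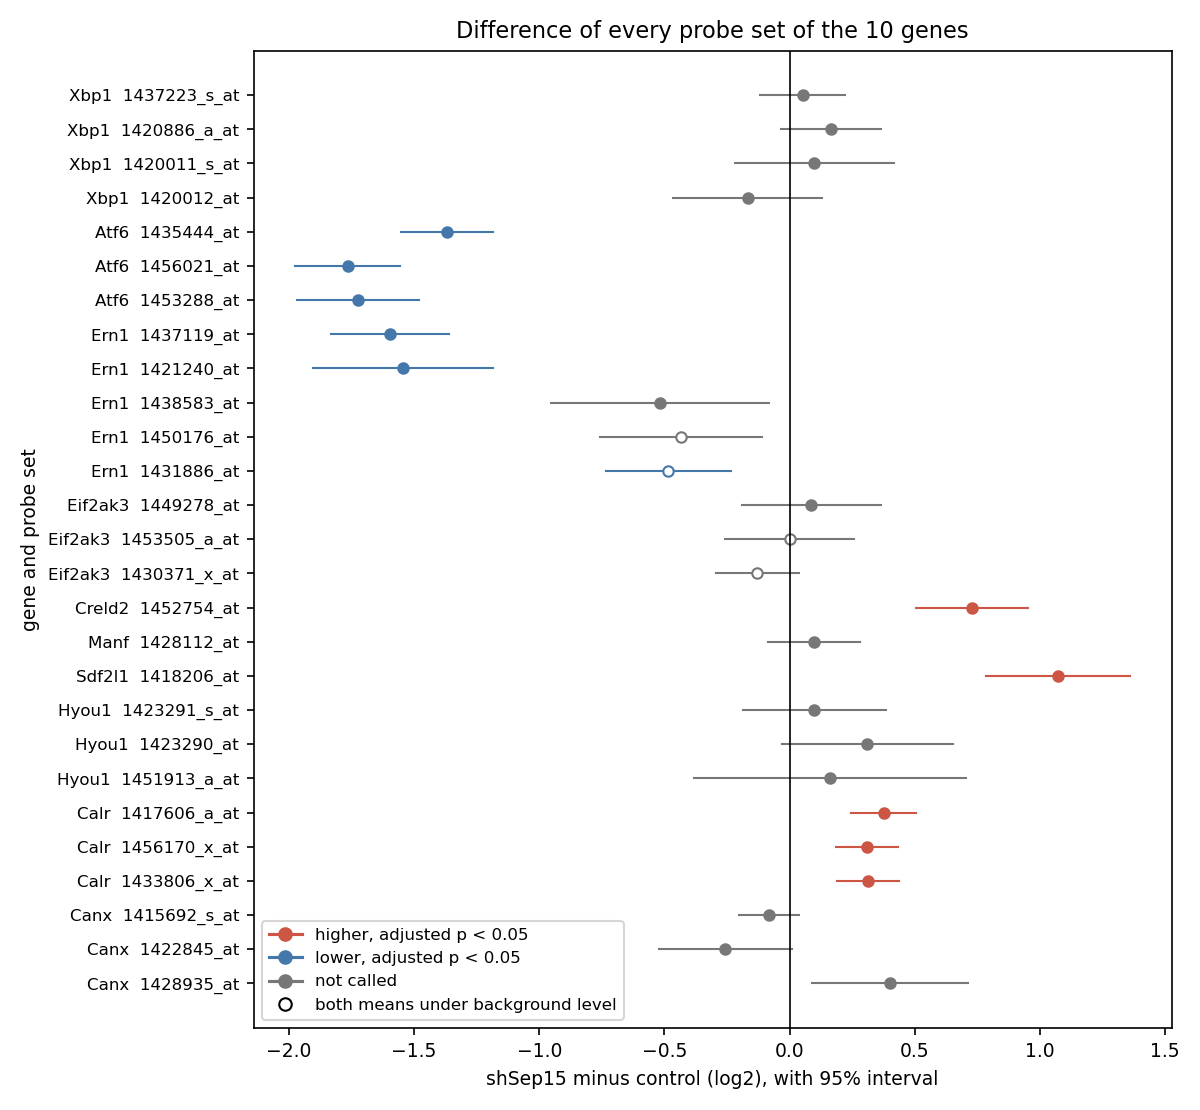
Difference between shSep15 and control (log2, horizontal axis) for each of the 27 probe sets (vertical axis), with the unadjusted 95% interval of limma. Open points are probe sets with both group means under the background level. All 3 Atf6 and all 5 Ern1 points lie below 0, and the 3 Calr points lie between 0.31 and 0.38.

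Sdf2l1, a cofactor that forms a complex with the ER chaperone Dnajb11, had the greatest rise of the 10 genes. Its 1 probe set, 1418206_at, read 7.64, 8.02 and 7.79 on the control arrays and 8.82, 8.86 and 8.99 on the shSep15 arrays. The lowest shSep15 array was above the highest control array. Means were 7.81 ± 0.19 and 8.89 ± 0.09 (SD, n = 3 each), and the difference was 1.07 (SE 0.13, limma adjusted p = 0.000367). Among the 11131 genes above background, 359 had a larger rise.

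Creld2, a secreted and ER-resident protein with epidermal growth factor-like domains that is known as an ER stress-inducible gene, rose as well. Probe set 1452754_at read 9.73, 9.59 and 9.47 in control and 10.39, 10.36 and 10.22 in shSep15 cells, with no overlap. The means were 9.60 ± 0.13 and 10.32 ± 0.09 (SD, n = 3 each) and the difference was 0.73 (SE 0.10, limma adjusted p = 0.000783).

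Manf, a small ER protein that binds Hspa5 and is secreted under stress, did not pass the test. Its probe set 1428112_at read 12.03, 12.17 and 11.84 in control and 12.09, 12.16 and 12.09 in shSep15 cells. The shSep15 arrays lay inside the control range, and the difference of 0.10 (limma adjusted p = 0.504) had a 95% interval of −0.09 to 0.28. The rises of Sdf2l1 and Creld2 are larger than that upper bound.

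Hyou1, a large relative of HSP70 that acts as nucleotide exchange factor for Hspa5, did not pass on any of 3 probe sets. The brightest, 1423291_s_at, read 10.27, 10.73 and 10.76 in control and 10.69, 10.65 and 10.72 in shSep15 cells, a difference of 0.10 (limma adjusted p = 0.685, 95% interval −0.19 to 0.38). The spread came from the control side, where the SD was 0.28, against 0.03 in shSep15 cells. Without control 1, the low array, the difference was −0.06. On 1423290_at the control arrays read 9.40, 10.02 and 9.61 and the shSep15 arrays 9.89, 9.98 and 10.09 (0.31, limma adjusted p = 0.216). That probe set passed without control 2, its highest control array (0.48, limma adjusted p = 0.0274). On 1451913_a_at, which differed by 0.16, each group spanned about the same range, 7.56 to 8.29 in control and 7.53 to 8.28 in shSep15 cells.

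Of the lectin chaperones, which hold newly made glycoproteins until they are folded, the soluble Calr rose and the membrane-bound Canx did not pass the test. Calr read 12.57, 12.69 and 12.54 in control and 12.89, 13.05 and 12.99 in shSep15 cells on 1417606_a_at. The means were 12.60 ± 0.08 and 12.98 ± 0.08 (SD, n = 3 each), and the difference was 0.38 (SE 0.06, limma adjusted p = 0.00157). Calr was also called on 1456170_x_at and 1433806_x_at, with differences of 0.31 and 0.31 (limma adjusted p = 0.00330 and 0.00311). The suffix x marks sets with probes that can cross-hybridise. No shSep15 array overlapped the control arrays on any of the 3. The change is small: 38.5% of genes above background had a larger absolute difference.

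Canx read 11.87, 11.89 and 11.84 in control and 11.75, 11.78 and 11.83 in shSep15 cells on 1415692_s_at. Every shSep15 array was below every control array, but by little, and the difference of −0.08 was not called (limma adjusted p = 0.379, 95% interval −0.20 to 0.04). The other probe sets lay on both sides: 1422845_at at −0.26 (limma adjusted p = 0.189) and 1428935_at, near background, at 0.40 (limma adjusted p = 0.0795). The latter was called when only probe sets above background were tested (limma adjusted p = 0.0485). Counting Canx, 6 of the 10 genes had groups that did not overlap, against 38.1% of all genes, dim ones included. That share was not computed over genes above background, where all 10 lie, so the 6 are no result about the list.

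The calls of the 10 genes did not hang on 1 array. With each array left out in turn, and under every other setting tried, Sdf2l1, Creld2 and Calr stayed called higher and Atf6 and Ern1 lower. The differences without 1 array ran from −1.41 to −1.35 for Atf6, −1.70 to −1.54 for Ern1, 0.98 to 1.17 for Sdf2l1, 0.66 to 0.79 for Creld2 and 0.34 to 0.42 for Calr. Arrays of a group were not alike over the members, however. Over the 23 member probe sets above background, control 2 was the highest control array on 14 and control 3 the lowest on 16. Their median deviations from the control mean were 0.11 and −0.09. On the shSep15 side the deviations were between −0.02 and 0.03. The part of this control spread, or of the high ribosomal RNA signal of control 3, in the members that did not pass was not tested.

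The nearest genes on the chromosome were set beside these changes. For each member the 10 nearest genes above background on either side were taken from the RefSeq gene order. Of all 11131 genes above background, 2140 were called higher and 2222 lower. Median differences over the whole chromosomes of the members lay between −0.08 and 0.02. Around Atf6, 7 of 20 neighbours were lower and 1 higher, with a median of −0.27, and none fell as far as Atf6. Around Ern1, 5 were lower and 4 higher, with a median of 0.01, and 2 fell further. Around Creld2, 8 neighbours were lower and 1 higher (median −0.28), opposite to Creld2, and none rose as far. Around Sdf2l1, 1 was lower and 1 higher, with a median of 0.03. Around Calr, 4 were lower and 4 higher (median 0.16), and 4 rose further than Calr.

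Paralogs give a comparison within families. Atf6b, the relative of Atf6, was higher by 0.46 (limma adjusted p = 0.0143), whereas Atf6 was lower. That call ended without shSep15 1 (0.39, limma adjusted p = 0.0574). Creld1, the relative of Creld2, was lower by −0.50 (limma adjusted p = 0.0173), but close to background, at 6.80 in control and 6.30 in shSep15 cells. Its call ended without shSep15 1 (limma adjusted p = 0.0521) or shSep15 3 (0.0758). Sdf2, the relative of Sdf2l1, was not called (−0.19, limma adjusted p = 0.155). Ern2 and Clgn, the relatives of Ern1 and Canx, were under background in both groups and not called. The differences between paralogs were not tested themselves.

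Other genes around the sensors moved in both directions. Of 19 measured genes that cut, bind or resemble the sensors, 4 were higher and 2 lower, with a median of 0.00. The share called, 31.6%, lies between the 25.0% of all genes and the 39.2% of genes above background, and is no result about them as a list. Wfs1, an ER membrane protein that restrains Atf6, fell from 9.68 to 8.12 (−1.56, SE 0.13, limma adjusted p = 4.58e-05). Traf2, an adaptor that Ern1 recruits, fell by 0.60 (limma adjusted p = 0.00489). Eif2ak2, the eIF2α kinase that senses double-stranded RNA, rose by 0.90, a call that ended without control 2 (0.87, limma adjusted p = 0.0571). Bak1, a pro-apoptotic protein that also binds Ern1, rose by 0.61, but averaged with its other probe sets it was not called (0.25, limma adjusted p = 0.365). Creb3, an ER-anchored transcription factor named after its value was seen, rose by 0.49. The proteases that cut Atf6 were not called: Mbtps1 differed by −0.01 and Mbtps2 by 0.10.

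Targets of Atf6 and Xbp1 were split. Of 27 measured, 9 were higher and 7 lower, with a median of 0.10. The 27 include the paralogs Sdf2, not called, and Creld1, which is among the 7 lower. All 27 were above background, and 59.3% were called, beside 39.2% of genes above background. As the list was chosen with earlier results of these data known, that share describes these genes only. The count of 9 fell to 7 when any single array but control 2 was left out. Ostc, a subunit of the oligosaccharyltransferase, rose by 1.24 (SE 0.06, limma adjusted p = 2.17e-06) and Sec24d, a coat protein of ER export vesicles, by 1.17. Sel1l, the scaffold of a ubiquitin ligase of ER-associated degradation, fell by 0.99 (SE 0.07, limma adjusted p = 2.95e-05), as did its 4 other probe sets above background. Dnajb9, a co-chaperone that holds Ern1 inactive, fell by 0.84 (limma adjusted p = 0.000591). Hspa5 fell from 13.51 to 13.11 (−0.40, limma adjusted p = 0.00144), but averaged with its other probe sets it was not called (−0.18, limma adjusted p = 0.0793). Hsp90b1, the ER form of HSP90, was not called (−0.02).

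Atf4 and targets downstream of Eif2ak3 and Atf4 mostly fell. Of 13 measured, 12 of them above background, 11 were lower and 0 higher by limma, with 0 higher at an unadjusted p under 0.05. The count of 11 became 9 without control 2 or without shSep15 2. The median was −0.83. Of all genes 12.8% were called lower, and of the 11131 genes above background 2222 were. The list was chosen with earlier results of these data known, so its count describes these genes only. Ppp1r15a, the phosphatase subunit that restores eIF2α, fell by 2.38 (SE 0.08, limma adjusted p = 5.76e-07). The pseudokinase Trib3 (−2.25), the factor Ddit3 (CHOP, −2.24) and the lipoprotein receptor Vldlr (−1.83) fell too. Averaged with its other probe set, Ddit3 was lower by −1.36 (limma adjusted p = 8.43e-05). Of the other probe sets above background, the 1 of Ddit3 was not called lower, the 1 of Trib3 was, and so were the 5 of Vldlr.

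Partners of Calr and Canx in glycoprotein folding were higher or not called. Of 12 measured, 9 of them above background, 7 were higher and 0 lower by limma, with 8 higher and 0 lower at an unadjusted p under 0.05, and the median was 0.33. Of all genes, 12.2% were called higher, and of the 11131 genes above background 2140 were. This list too was chosen with earlier results of these data known, so its count describes these genes only. Ganab, the catalytic subunit of glucosidase II, rose from 8.83 to 10.33 (1.50, SE 0.11, limma adjusted p = 2.50e-05). Erp29, a luminal folding factor, rose by 0.95, Mlec, a lectin for early glycans, by 0.77 and Mogs, glucosidase I, by 0.58. When all probe sets of a gene were averaged, 4 of the 12 were higher, and Mlec was not called (0.26, limma adjusted p = 0.0793). Of the 7, Uggt1, Lman1 and Mlec each had 2 other probe sets above background, and 0 of these were called higher by limma, with 1 of Lman1 and 1 of Mlec higher at an unadjusted p under 0.05. Pdia3 counts in this list and among the targets of Atf6 and Xbp1.

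**Figure D3:**
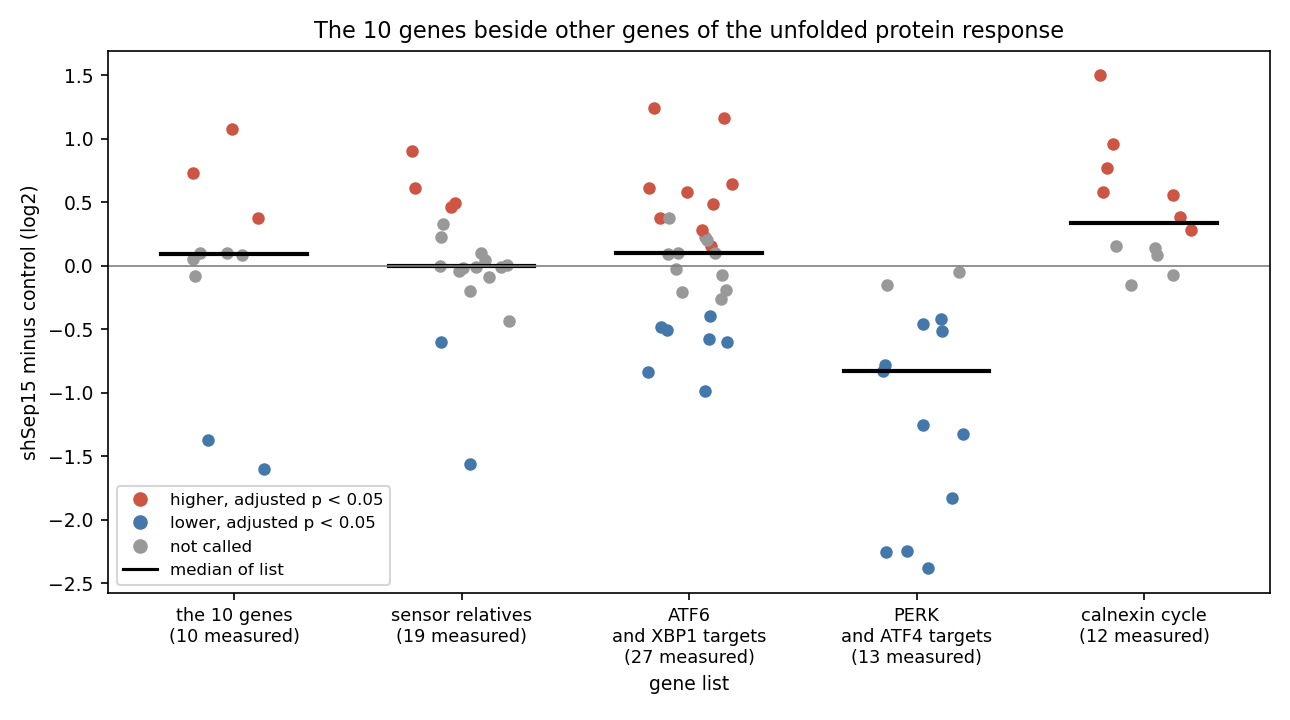
Difference between shSep15 and control (log2, vertical axis) for the 10 genes and for the genes of 4 lists around them (horizontal axis), 1 point per gene at its brightest probe set. Black bars are list medians, at 0.09, 0.00, 0.10, −0.83 and 0.33 from left to right. The horizontal scatter of points within a list has no meaning.

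Genes with the first form of the promoter element went in both directions. Above background, 15 genes had it in a RefSeq window, of which 4 were higher and 3 lower, beside 19.9% higher and 19.4% lower of 9048 genes with a window. Creld2, Dnajc3 (0.64), Pdia6 (0.48) and Calr were the higher ones. Hspa5, Alg12 (−0.47) and Acacb (−0.61) were the lower ones. Canx and Hsp90b1, which also carry it, were not called. Apart from the members, Hspa5 and Hsp90b1, these genes were named after their values were seen. Sdf2l1, with the greatest rise of the 10, had CCAAT and CCACG boxes in its window but not at that spacing. The second form was in the window of 9 genes above background, none of them a member, of which 4 were lower and 0 higher by limma (1 higher at an unadjusted p under 0.05). The lower ones, also named after their values were seen, were Herpud1 (−0.48), which serves ER-associated degradation, Rcl1 (−0.37), Lgalsl (−0.36) and Nucb1 (−0.27).

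**Figure D4:**
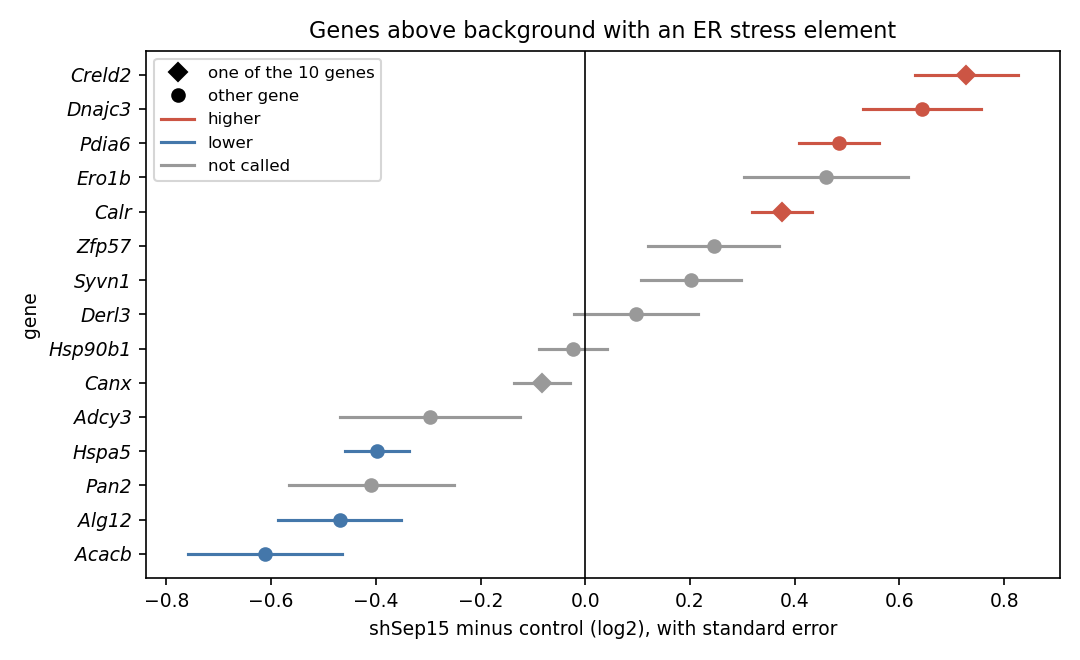
Difference between shSep15 and control (log2, horizontal axis) with its standard error for the 15 genes above background whose RefSeq promoter window holds CCAAT, any 9 bases and CCACG (vertical axis). Diamonds are Calr, Canx and Creld2. The points run from −0.61 for Acacb to 0.73 for Creld2.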

How the data were processed

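The deposited table holds log2 signals, 1 per probe set and array, made by the authors with RMA, per the submitters' processing notes. Its version is not stated there. Values, 3.31 to 14.24, were used as deposited. Between-array normalization hides a change of total RNA. Of 45101 probe sets, 64 array controls were left out and 45037 fitted with limma 3.58.1 in R 4.3.3 (group as the only term, eBayes with trend). Symbols, single for 34945 probe sets, were updated by gene identifier (GRCm38.p6). The background level is the 95th percentile of 80 receptor probe sets. Same-numbered arrays were not treated as pairs.

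The members, the lists and the tests were chosen with earlier results of these data known. The genes named were Selenof, the members, Hspa5, Hsp90b1, 6 paralogs (of which Cdnf had no single-symbol probe set) and up to 4 called genes with the largest differences per list. Outside that rule, Atf4, Creb3, Uggt1, Lman1 and the proteases Mbtps1 and Mbtps2 were named after their values were seen. Neighbouring genes and the genes sharing a promoter element were described after seeing the data. Protein sequences were not used here. Precision is limited by 3 arrays per group.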

Additional observations from a re-analysis of the deposited data

How the results depend on the processing

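The alternatives were each array left out in turn, the replicate block, eBayes without trend, arrays shifted to the same median, quantile normalization once more, array weights, only probe sets above background, the mean of all probe sets of a gene and, for the members, an adjusted p threshold of 0.01. Member genes called stayed at 3 higher and 2 lower under all 14, and no direction of a called value turned. Of the counts of list genes, that of the calnexin cycle genes called higher moved by more than 1.5 times, from 7 to 4 with the mean of all probe sets. It was 6 to 8 elsewhere. Smaller moves were 7 to 10 for targets of Atf6 and Xbp1 higher (9 as reported) and 6 to 7 lower (7), 9 to 11 for targets of Eif2ak3 and Atf4 lower (11), and 3 to 5 for genes around the sensors higher (4) and 2 to 3 lower (2). For single genes and probe sets outside the 10 gene values, 7 settings added a limma call and 9 ended one; those that touch a named value stand beside it, except that 1450176_at of Ern1 was also called after quantile normalization (−0.45, limma adjusted p = 0.0486) and with array weights (−0.48, 0.0365), and 1438583_at with array weights (−0.61, 0.0203). No label says whether the repeat numbers pair the arrays. Same-numbered arrays correlated in their deviations from the group mean at 0.38, −0.15 and −0.02, and differently numbered ones at −0.36 to 0.37. With 3 arrays per group these values cannot decide it. With the replicate block, all genes called numbered 2246 higher and 2345 lower, against 2220 and 2323 without it, and Atf6 (−1.37, limma adjusted p = 4.50e-05), Ern1, Sdf2l1, Creld2 and Calr stayed called. Leaving out 1 array gave 1697 to 1965 genes higher and 1800 to 2308 lower. RMA compresses differences of dim probe sets, which limits the 4 member probe sets under background.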
